A study of Mus musculus with 18 samples.

Results

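The dividing cell genes are 9 mouse genes that are switched on while cells copy and part their chromosomes: Mki67, Top2a, Cdk1, Ccnb1, Ccna2, Aurkb, Birc5, Bub1 and Cenpf. They were picked by symbol as well-known genes of cell division, with earlier results of these data known, and each matched 1 of the 54446 genes in the count table. All 9 had reads in all 18 libraries (27 to 1057 reads per gene and library), and all 9 passed the filter on low counts in each of the 16 comparisons. Their RNA was lowest in layer 4 of the cortex in nearly every mouse, and no difference between FOXP2 and GFP mice within a layer passed the test after that filter.

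Cells that prepare to divide pass through DNA synthesis and then mitosis, and complexes of a cyclin with a cyclin-dependent kinase drive each step. In mitosis, kinases and checkpoint proteins at the centromere hold chromosomes back until the spindle has attached to all of them. Neurons have left this cycle for good, whereas the young postnatal cortex still holds glial precursors, microglia and vascular cells that divide, so RNA of these genes in this tissue is best known from cycling non-neuronal cells.

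The outbred CD-1 stock supplied 6 mice, whose neocortical RNA was sequenced at postnatal day 7. At E14.5, in the embryo, their ventricular wall had been electroporated in utero, a method that brings plasmids into the cells lining the ventricle. The groups differ by construct: 2 mice received human FOXP2 cDNA (huFOXP2), 1 mouse received mouse Foxp2 cDNA (moFoxp2), and 3 mice received an empty plasmid (GFP), with Gfp cDNA alongside per the labels. Layers 5-6 (L5-6), layer 4 (L4) and layers 2-3 (L2-3) were dissected from 300 µm sections and pooled for each mouse, giving 1 library per layer and mouse. FOXP2 is a forkhead transcription factor, and FOXP2 mice stands here for all 3 mice with either cDNA. The labels describe the cells of L4 as GFP-positive and those of L2-3 and L5-6 as GFP-negative. They also call both L5-6 and L2-3 infragranular, a word for the layers below L4. Syt6, a marker of layer 6, stood at 56.9 to 128 CPM in L5-6, 4.18 to 13.6 CPM in L4 and 4.09 to 9.70 CPM in L2-3 over the 6 mice. Cux2, a marker of layers 2 to 4, stood at 52.7 to 155 CPM in L5-6. It stood at 304 to 346 CPM in L4 and 223 to 398 CPM in L2-3. By Syt6 and Cux2, the L2-3 libraries had low deep-layer and high upper-layer marker RNA. Rorb, a marker of layer 4, stood at 154 to 272 CPM in L4. It stood at 41.6 to 207 CPM in L2-3 and 41.4 to 160 CPM in L5-6. Fezf2, a deep-layer marker, stood at 28.4 to 77.5 CPM in L5-6. It stood at 8.91 to 46.9 CPM in L4 and 2.01 to 9.69 CPM in L2-3. For Rorb and Fezf2 the L4 range overlapped those of L2-3 and L5-6, whereas Bcl11b, another deep-layer marker, showed no overlap. Mixing of layers in the dissection was not tested. The labels name no promoter for the cDNAs and no other allele, and the moFoxp2 group rests on 1 animal.

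Library totals lay between 10111149 and 23404528 reads. Levels are given as CPM, reads relative to the library total and scaled by TMM factors, and errors are SD over mice unless stated. Foxp2 RNA stood at 33.3 to 65.0 CPM in L4 of FOXP2 mice and at 5.39 to 8.75 CPM in L4 of GFP mice, and at 20.2 to 52.3 CPM in L2-3 of FOXP2 mice and 1.77 to 6.54 CPM in L2-3 of GFP mice. In L5-6 the ranges overlapped, with 39.6 to 77.8 CPM in FOXP2 mice and 52.4 to 68.6 CPM in GFP mice. Markers of cortical excitatory neurons summed to at least 971 CPM in all libraries. Libraries of 2 mice stood apart. The L5-6 library of GFP mouse 1 had the highest level of all 9 genes among the 18 libraries. It also had the highest sums for markers of oligodendrocyte precursors, myelinating oligodendrocytes, astrocytes, microglia and ependyma, and the lowest neuronal sum of L5-6 (1069 CPM, against 1606 to 1986 CPM in the other L5-6 libraries). All 3 libraries of huFOXP2 mouse 1 held photoreceptor RNA, with a sum over 8 markers of 15.3 to 28.2 CPM, against at most 3.84 CPM in the other 15 libraries, although Crx, a photoreceptor transcription factor, was at 0 in 14 libraries. Some results are therefore also given without 1 of these mice.

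Many genes of mitosis share promoter elements, and promoters are shown here as background. Whether these elements bear on the levels in these libraries was not tested. CCAAT boxes are bound by the factor NF-Y, and the cell cycle genes homology region (TTTGAA or TTCGAA) is bound by the DREAM and MYB-MuvB complexes, which hold such genes low in resting cells and high in dividing ones. RefSeq promoters of build GRCm38.p6, from 250 bases before to 50 after the start site, were matched for 7 of the 9 genes, all but Aurkb and Ccna2. Both motifs were searched on both strands. The printed stretches, 5′ to 3′ on the strand of the gene with all motif matches in capitals (ATTGG and TTCAAA are matches on the other strand), cover chr7:135716470-135716569 for Mki67, chr11:99024190-99024319 for Top2a, chr10:69352913-69353002 for Cdk1 and chr1:189688079-189688221 for Cenpf, all on the minus strand. Each of them holds both motifs. Bub1 holds both as well (CCAAT at -68 and -42, TTCGAA at 15 from the start site) but is not printed.
Mki67: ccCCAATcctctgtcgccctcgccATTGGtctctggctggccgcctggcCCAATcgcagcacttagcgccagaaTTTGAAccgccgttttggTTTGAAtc
Top2a: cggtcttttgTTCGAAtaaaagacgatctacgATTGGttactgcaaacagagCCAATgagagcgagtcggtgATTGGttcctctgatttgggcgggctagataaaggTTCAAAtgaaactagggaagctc
Cdk1: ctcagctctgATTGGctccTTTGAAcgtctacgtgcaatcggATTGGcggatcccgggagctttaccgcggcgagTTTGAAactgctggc
Cenpf: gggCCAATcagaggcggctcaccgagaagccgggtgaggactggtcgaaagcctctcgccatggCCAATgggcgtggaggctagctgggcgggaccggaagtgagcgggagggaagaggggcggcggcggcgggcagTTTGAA
In the Mki67 stretch 3 CCAAT boxes stand upstream of a pair of TTTGAA matches, and in Cdk1 CCAAT and TTTGAA alternate. A CCAAT was found in 6 of the 7 promoters, against 37.4% of the 32544 promoters in the table, and at least 2 of them in the same 6, against 11.6%. TTTGAA or TTCGAA was found in 5 of the 7, against 19.1%, and both motifs in 5 of the 7, against 7.5%. The CCAAT sequence alone was found in Ccnb1, and in the Birc5 window neither was found, which says only that these letters are not in that window.

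Mean levels over the 18 libraries were also divided by the summed exon length of each gene. Top2a (3.96 CPM per kb), Mki67 (3.22), Ccna2 (3.15) and Cdk1 (2.67 CPM per kb) led. Aurkb (1.88), Birc5 (1.57), Ccnb1 (1.38), Bub1 (1.13) and Cenpf (0.862 CPM per kb) followed. The span from the lowest to the highest library was as wide as the distance between many of these genes, for example 1.71 to 7.28 CPM per kb for Mki67 and 2.18 to 8.57 CPM per kb for Top2a. Neighbours in this order therefore overlapped, but its ends did not: the highest Cenpf library (1.98 CPM per kb) lay below the lowest Top2a library. The spans of Ccna2 and Exosc9 overlap on opposite strands, as do those of Mki67, Top2a and Cenpf with genes named only by Gm symbols, and since the use of strand in counting is not stated, reads there may have been shared. Top2a also overlaps Gm23451 on its own strand, which a count by strand would not tell apart.

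The 9 genes varied together. Over the 18 libraries of 6 mice, Pearson's r of log2 CPM between any 2 of them lay between 0.744 and 0.951 (median 0.881 over 36 pairs). Ccna2 (r = 0.973) and Top2a (0.968) were closest to the mean of the other members, and Cdk1 (0.897) was farthest from it. The libraries share mice, layers and the high L5-6 library of GFP mouse 1, so these values describe the set and carry no test. Of 16296 other genes, the 10 most like the mean of the members were Bub1b (r = 0.973), a protein of the spindle checkpoint, Tmpo (0.959), a nuclear envelope protein, and then Phactr4, Dazap2, Pld1, Syk, Magt1, Prkd3, Smad5 and Plod2 (0.945 to 0.954). Bub1b is the 1 gene among these 10 that also stood on the lists of cell cycle genes described further on.

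The layers were compared first, within mice, in 1 fit with the mouse as a block. L4 held less RNA of the dividing cell genes than either neighbour. In all 54 of 54 pairs of gene and mouse, L4 lay below L2-3, and in 52 of 54 it lay below L5-6; the exceptions were Aurkb and Birc5 in huFOXP2 mouse 2. L4 thus lay below L2-3 in all 6 mice for 9 of 9 genes, against 18.3% of the 16305 genes tested, and below L5-6 in all 6 mice for 7 of 9, against 18.7%. Summed over the 9 genes, FOXP2 mice had 114.6 ± 21.9 CPM in L5-6, 84.1 ± 9.66 CPM in L4 and 157.8 ± 10.9 CPM in L2-3, and GFP mice had 183.0 ± 74.8 CPM in L5-6, 95.5 ± 13.2 CPM in L4 and 138.9 ± 13.9 CPM in L2-3 (SD, n = 3 each). A library holds the RNA of all cells in the dissected piece, and CPM is a share of that RNA. Fewer dividing cells, less of this RNA per dividing cell and more RNA from other cells therefore cannot be told apart.

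**Figure D1:**
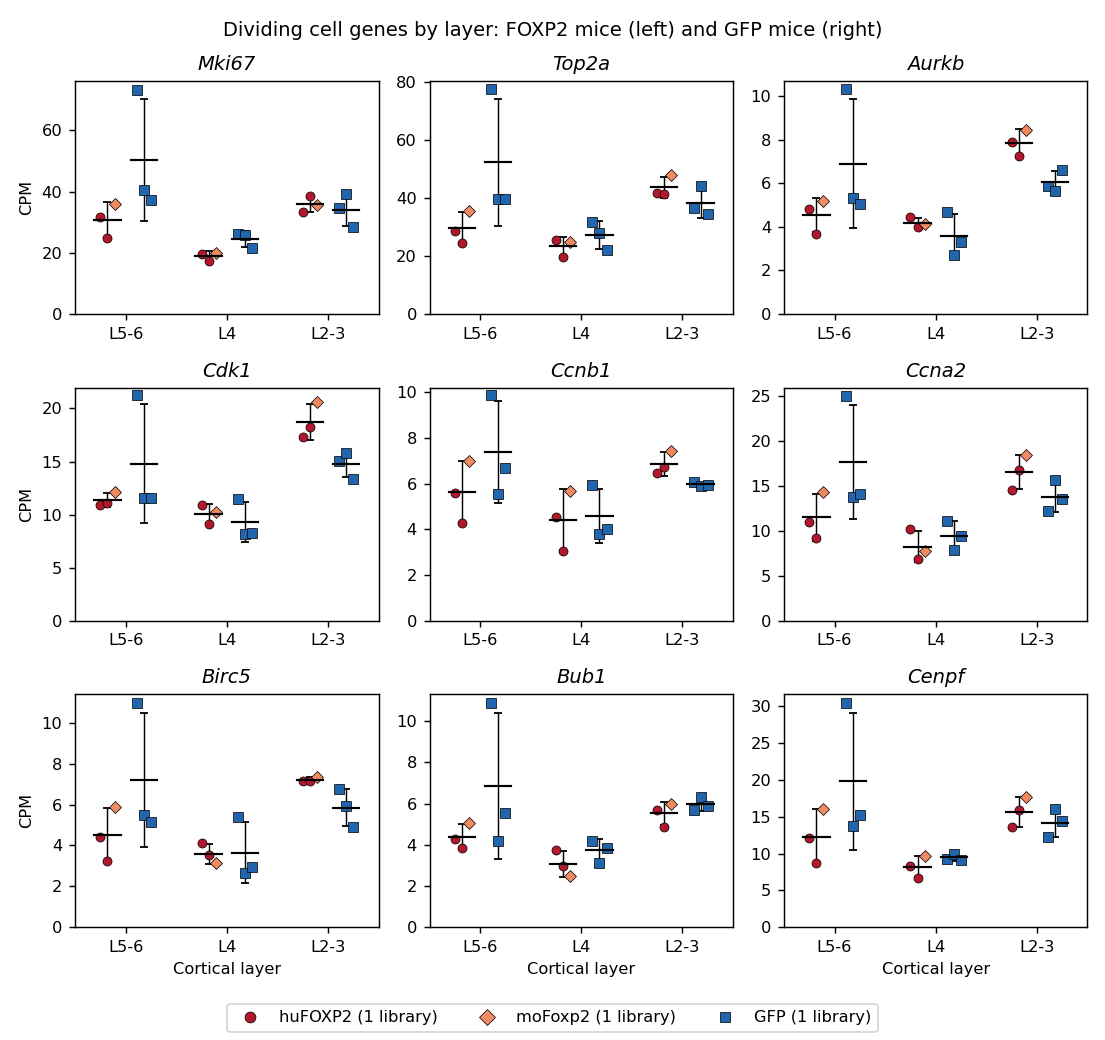
Level of each dividing cell gene in CPM (vertical axes, from 0) in L5-6, L4 and L2-3, with 1 point per library, FOXP2 mice left of GFP mice, a line at the mean and bars of SD over 3 mice. L4 is low in each panel, and the square far above the rest in L5-6 is GFP mouse 1.

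In FOXP2 mice all 9 genes fell in L4 relative to L2-3 (adjusted p under 0.05 in edgeR's quasi-likelihood test), where 20.9% of the 16305 genes tested were lower. The median log2 change was -0.90, with 0.03 over all genes. In GFP mice the same contrast had all 9 estimates below 0 (median -0.59), and 3 genes fell, Cdk1, Aurkb and Birc5, against 7.07% of genes lower. Whether the change differed between FOXP2 and GFP mice was tested itself: 0 of 9 passed (median difference -0.27, 0 with an unadjusted p under 0.05), as did 0% of all genes in edgeR (2851 of 16305 with an unadjusted p under 0.05). DESeq2 called 0 of 9 there and 526 of 12511 genes. In L5-6 relative to L4 of FOXP2 mice all 9 estimates were above 0 (median 0.35), and 1 gene, Mki67, rose, against 8.48% of genes higher. In GFP mice all 9 genes rose in L5-6 relative to L4 (median 0.90), against 16.3% of genes higher. The difference between FOXP2 and GFP mice was again below the threshold for all 9 (median -0.44, 4 with an unadjusted p under 0.05), and 0.00613% of genes passed there. DESeq2 also called 0 of 9.

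Ki-67, the product of Mki67, coats the surface of mitotic chromosomes and is the standard marker of cycling cells. Mki67 stood at 19.6, 17.2 and 20.0 CPM in L4 of huFOXP2 mice 1 and 2 and the moFoxp2 mouse, against 33.3, 38.4 and 35.6 CPM in their L2-3. It was lower in L4, with a log2 fold change and SE of -0.92 ± 0.17 (adjusted p = 0.000757 in edgeR) and no overlap between the layers. In GFP mice 1 to 3 it had 26.3, 25.9 and 21.4 CPM in L4, against 34.5, 39.3 and 28.6 CPM in L2-3. That change of -0.47 ± 0.17 missed the threshold (adjusted p = 0.0909). In L5-6 Mki67 reached 31.8, 24.8 and 35.9 CPM in the FOXP2 mice and rose over their L4 by 0.69 ± 0.17 (adjusted p = 0.0156). It reached 73.3, 40.4 and 37.1 CPM in L5-6 of the GFP mice, 0.98 ± 0.17 above their L4 (adjusted p = 0.000843). Every L5-6 library thus lay above the L4 library of the same mouse.

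Top2a encodes topoisomerase IIα, which untangles sister DNA molecules before they part. In FOXP2 mice it had 25.4, 19.6 and 24.9 CPM in L4, against 41.6, 41.4 and 47.8 CPM in L2-3, a fall of 0.90 ± 0.17 (adjusted p = 0.000819). In GFP mice it had 31.8, 27.7 and 22.0 CPM in L4, against 36.3, 43.9 and 34.3 CPM in L2-3 (-0.51 ± 0.17, adjusted p = 0.0686). The layers did not overlap in either set of mice. Top2a reached 28.7, 24.5 and 35.5 CPM in L5-6 of FOXP2 mice, 0.33 ± 0.17 from their L4 (adjusted p = 0.211). In L5-6 of GFP mice it reached 77.3, 39.6 and 39.5 CPM and rose by 0.90 ± 0.17 over L4 (adjusted p = 0.00156).

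Among the genes of the cyclin-dependent kinase engine, Cdk1 is the kinase of mitosis, Ccna2 (cyclin A2) partners it through DNA synthesis and G2, and Ccnb1 (cyclin B1) brings the cell into mitosis. Cdk1 had 10.9, 9.14 and 10.3 CPM in L4 of FOXP2 mice, against 17.3, 18.2 and 20.6 CPM in L2-3, and fell by 0.88 ± 0.15 (adjusted p = 0.000377). In GFP mice Cdk1 had 11.4, 8.17 and 8.24 CPM in L4, against 15.03, 15.8 and 13.4 CPM in L2-3, and fell by 0.69 ± 0.15 (adjusted p = 0.0103). It was the member with the smallest adjusted p in both sets. Ccna2 averaged 8.24 ± 1.72 CPM in L4 and 16.6 ± 1.92 CPM in L2-3 of FOXP2 mice, a fall of 0.99 ± 0.22 (adjusted p = 0.00233). Ccnb1 averaged 4.42 ± 1.33 CPM in L4 and 6.87 ± 0.510 CPM in L2-3 of these mice and fell by 0.66 ± 0.18 (adjusted p = 0.00965). In GFP mice neither cyclin passed in L4 relative to L2-3 (-0.56 ± 0.21 for Ccna2, -0.41 ± 0.18 for Ccnb1). Relative to L4, Cdk1, Ccna2 and Ccnb1 rose in L5-6 of GFP mice by 0.64, 0.86 and 0.68, with adjusted p-values of 0.00692, 0.00776 and 0.0103.

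Aurora kinase B (Aurkb) and survivin (Birc5) belong to the chromosomal passenger complex, which corrects faulty attachments of chromosomes to the spindle. Aurkb had 4.46, 4.02 and 4.13 CPM in L4 of FOXP2 mice, against 7.90, 7.24 and 8.46 CPM in L2-3, and fell by 0.89 ± 0.20 (adjusted p = 0.00235). In GFP mice Aurkb had 4.69, 2.72 and 3.30 CPM in L4, against 5.88, 5.63 and 6.63 CPM in L2-3, and fell by 0.79 ± 0.20 (adjusted p = 0.0220). Both sets were free of overlap. Birc5 had 4.11, 3.53 and 3.12 CPM in L4 of FOXP2 mice, against 7.15, 7.16 and 7.37 CPM in L2-3, a fall of 0.99 ± 0.21 (adjusted p = 0.00175). In GFP mice Birc5 had 5.37, 2.64 and 2.94 CPM in L4, against 6.74, 5.92 and 4.91 CPM in L2-3, and fell by 0.72 ± 0.21 (adjusted p = 0.0416) although the ranges overlapped. In L5-6 relative to L4 both genes rose in GFP mice, by 0.91 ± 0.20 for Aurkb and 0.95 ± 0.20 for Birc5 (adjusted p = 0.00410 and 0.00379).

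Bub1 is a kinase of the spindle checkpoint, and Cenpf a large protein that joins the kinetochore in G2 and mitosis. Bub1 averaged 3.07 ± 0.645 CPM in L4 and 5.52 ± 0.569 CPM in L2-3 of FOXP2 mice, a fall of 0.82 ± 0.26 (adjusted p = 0.0193). Cenpf averaged 8.24 ± 1.46 CPM in L4 and 15.7 ± 2.05 CPM in L2-3 of these mice, a fall of 0.93 ± 0.25 (adjusted p = 0.00800). In GFP mice the L4 changes of Bub1 (-0.69 ± 0.24) and Cenpf (-0.59 ± 0.24) missed the threshold, with adjusted p-values of 0.0927 and 0.146. In L5-6 relative to L4 of GFP mice, Bub1 rose by 0.79 ± 0.24 (adjusted p = 0.0236) and Cenpf by 0.996 ± 0.24 (adjusted p = 0.00691).

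These layer differences held to different degrees when single mice were left out. The fall in L4 of FOXP2 mice was called for 6 to 9 of the 9 genes (4233 to 7261 of all genes, either direction). It was called for 8 without huFOXP2 mouse 1 and 6 without huFOXP2 mouse 2. The rise in L5-6 over L4 of GFP mice was called for 7 to 9 (2921 to 4714 of all genes), with 8 genes and a median of 0.69 without GFP mouse 1. The fall in L4 of GFP mice was called for 9 genes without GFP mouse 1, where 2908 of 16097 genes passed. It was called for 0 without GFP mouse 2 (556 of 16202 genes, member median -0.50) or GFP mouse 3 (486 of 16215 genes, median -0.60). The Mki67 call in L5-6 over L4 of FOXP2 mice was lost without any 1 of the 3 FOXP2 mice (709 to 1450 of all genes called). Without GFP mouse 1, 3 genes passed there (3881 of 16097 genes).

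Markers of other cells moved with the layers as well. In L4 of FOXP2 mice the 8 endothelial and pericyte markers summed to 407 to 462 CPM, against 1017 to 1464 CPM in L2-3, and 8 of 8 fell. The 7 markers of meningeal fibroblasts summed to 46.4 to 76.8 CPM in L4, against 1451 to 2053 CPM in L2-3, and 7 of 7 fell. Of 8 astrocyte markers 7 fell and 1 rose, of 7 microglia markers 6 fell, and of 8 markers of oligodendrocyte precursors 4 fell, with precursor sums of 542 to 720 CPM in L4 and 642 to 1095 CPM in L2-3. All 4 red blood cell markers tested and 3 of 5 choroid plexus markers fell, whereas 6 of 6 markers of cortical excitatory neurons rose, summing to 1651 to 1830 CPM in L4 and 971 to 1038 CPM in L2-3. Of 10 markers of subventricular zone progenitors and neuroblasts 2 rose and 2 fell, and 0 of 5 ependymal and 0 of 6 myelin markers passed. In L5-6 relative to L4 of GFP mice, 8 of 8 precursor markers, 6 of 6 of myelinating oligodendrocytes, 6 of 7 of microglia, 6 of 8 of astrocytes, 5 of 5 of ependyma, 6 of 10 of subventricular zone progenitors and neuroblasts, and 2 of 8 of endothelium and pericytes rose. The ependymal sum was 24.5 to 49.6 CPM in L5-6 and 5.69 to 16.2 CPM in L4 of these mice. The subventricular zone sum was 657 to 859 CPM in L5-6 and 864 to 1370 CPM in L4, and 1 of its markers fell. That sum follows mainly Dcx, which averaged 934 CPM over the 18 libraries, whereas the next marker, Dlx1, averaged 48.9 CPM. The median log2 change over the 10 markers was 0.73 in L5-6 over L4 of GFP mice, so the sum does not stand for the list. Of neuronal markers 2 rose and 3 fell, of 7 meningeal markers 1 rose and 1 fell, and 1 of 5 choroid plexus markers rose. The precursor sum was 1118 to 2463 CPM in L5-6 and 560 to 839 CPM in L4 of these mice. Of the 8 precursor markers, Gpr17 spanned 61.6 to 724 CPM and Bcas1 12.1 to 332 CPM over the 18 libraries. Pdgfra spanned 135 to 420 CPM and Cspg4 30.0 to 109 CPM, a narrower range relative to their level. The sum is therefore not a measure of dividing precursors, and which of its RNA came from dividing cells was not tested. Genes at 0 in some libraries were Tmem212 (13 libraries), Ccdc153 (11) and Dynlrb2 (4) of ependyma, Kcnj13 (9) and Folr1 (3) of choroid plexus, Eomes (5) of the subventricular zone and Hba-a2 (13) of red blood cells. The part of these cells in the result was not tested.

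**Figure D2:**
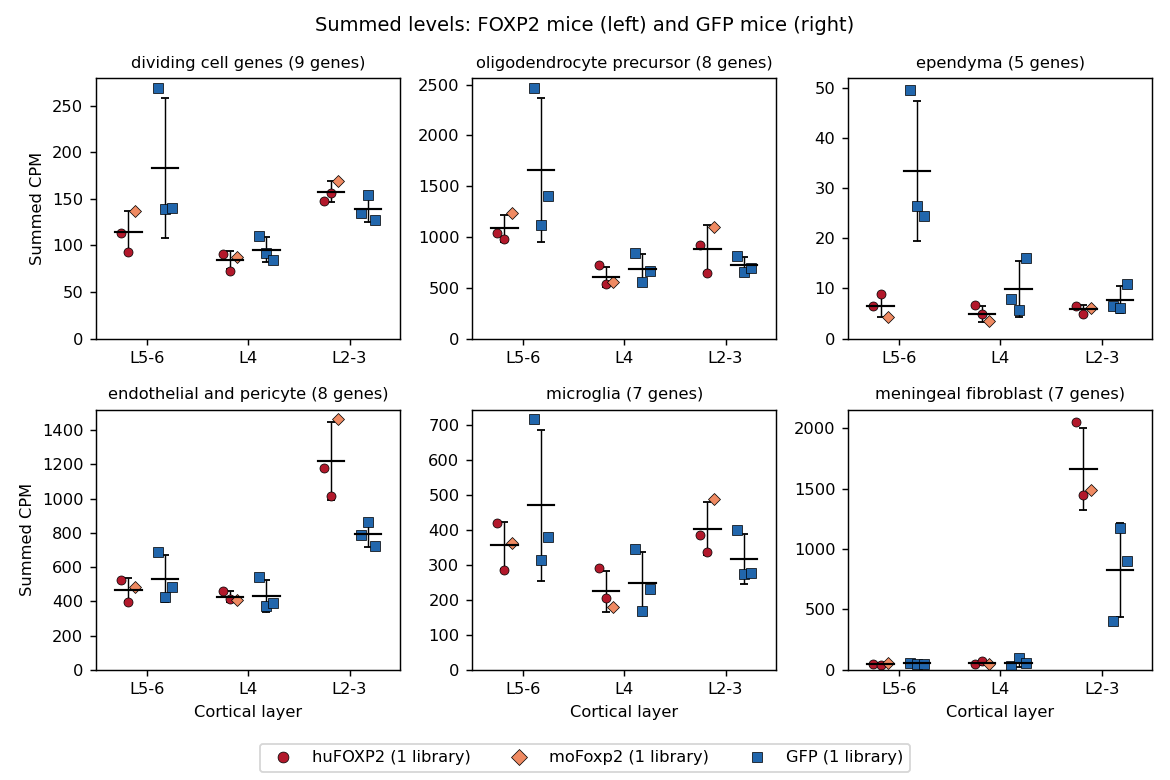
Summed CPM (vertical axes, from 0) of the 9 dividing cell genes and of 5 lists of cell type markers in L5-6, L4 and L2-3, with 1 point per library, FOXP2 mice left of GFP mice, a line at the mean and bars of SD over 3 mice. GFP mouse 1 tops the L5-6 panels of dividing cell, precursor, ependyma and microglia genes, and endothelial and meningeal sums are highest in L2-3.

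The outer and the deep layers were compared next. In FOXP2 mice L5-6 lay below L2-3 in 26 of 27 pairs of gene and mouse (the exception was Mki67 in the moFoxp2 mouse), so in all 3 mice for 8 of 9 genes, against 31.1% of genes, and in GFP mice it lay above L2-3 in 16 of 27. In FOXP2 mice Cdk1, Aurkb, Birc5 and Top2a fell in L5-6, 4 of 9 against 19.2% of genes lower, by 0.71 ± 0.15, 0.79 ± 0.19, 0.70 ± 0.20 and 0.57 ± 0.17 (adjusted p = 0.00160, 0.00461, 0.0130 and 0.0151). The median over the 9 was -0.53. In GFP mice Mki67 rose (0.51 ± 0.16, adjusted p = 0.0280), 1 of 9 against 15.3% of genes higher, and the median was 0.27. Without GFP mouse 1 the change of Mki67 was 0.19 (adjusted p = 0.303), the median -0.08, and Cdk1 the 1 gene called, at -0.35 (adjusted p = 0.0443). Of all genes, 4568 of 16097 were called in that fit. The Mki67 call was also lost without GFP mouse 3 (2982 of 16215 genes called). The count in FOXP2 mice was 6 with GFP mouse 1 left out (7104 of 16097 genes called). It was 2 with huFOXP2 mouse 1 left out (3922 of 16176) and 1 with huFOXP2 mouse 2 left out (4246 of 16175). In FOXP2 mice 8 of 8 endothelial, 7 of 7 meningeal, 5 of 8 astrocyte, 3 of 7 microglia, 4 of 4 tested red blood cell, 3 of 5 choroid plexus and 3 of 10 subventricular zone markers also fell. In these mice 4 of 8 precursor, 6 of 6 myelin, 4 of 6 neuronal, 1 astrocyte and 1 subventricular zone marker rose. In GFP mice 6 of 8 endothelial, 7 of 7 meningeal and 2 of 6 neuronal markers fell, and 8 of 8 precursor, 6 of 6 myelin, 5 of 5 ependymal, 7 of 10 subventricular zone, 4 of 7 microglia and 3 of 6 neuronal markers rose. Of the other GFP mouse calls, 1 subventricular zone marker fell, 2 astrocyte markers rose and 1 fell, and 1 choroid plexus marker rose and 2 fell. Their part in the result was not tested.

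**Figure D3:**
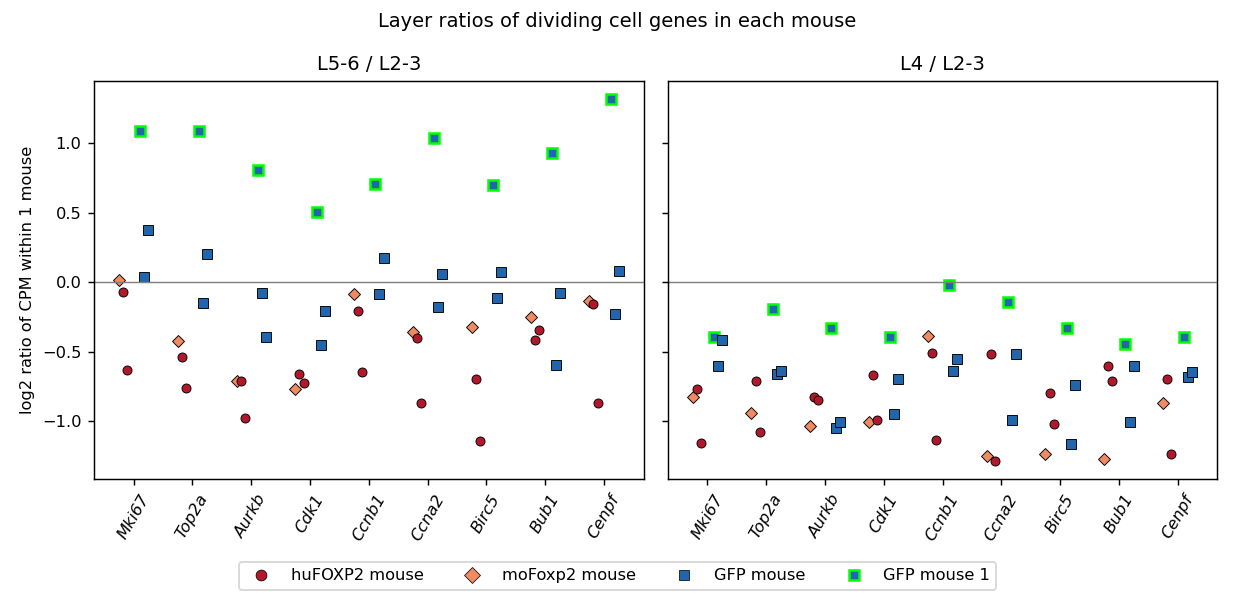
Log2 ratio of CPM between layers of the same mouse (vertical axis) for each gene, L5-6 over L2-3 on the left and L4 over L2-3 on the right, with FOXP2 mice left of GFP mice and GFP mouse 1 outlined in green. Points of FOXP2 mice lie below 0 on the left except Mki67 of the moFoxp2 mouse (0.01), those of GFP mice 2 and 3 run from -0.60 (Bub1 in GFP mouse 2, below all 3 FOXP2 mice) to 0.38 (Mki67 in GFP mouse 3), and GFP mouse 1 lies above all other mice for each gene.

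The L5-6 over L2-3 ratio of FOXP2 mice was then tested against that of GFP mice, which is the same as asking whether the effect of FOXP2 differed between these layers. The effect was lower in L5-6 than in L2-3 for 5 of 9 genes, Top2a, Birc5, Aurkb, Mki67 and Cdk1, and 8.41% of the 16305 genes were lower in this way. All 9 estimates were below 0, with a median of -0.78. The difference was -0.96 ± 0.23 for Top2a (edgeR adjusted p = 0.0190), and its log2 ratio of L5-6 over L2-3 was -0.54, -0.76 and -0.43 in the FOXP2 mice and 1.09, -0.15 and 0.21 in the GFP mice. For Mki67 the difference was -0.74 ± 0.23 (adjusted p = 0.0464), with ratios of -0.07, -0.63 and 0.01 in FOXP2 mice and 1.09, 0.04 and 0.38 in GFP mice. All ratios of FOXP2 mice lay below those of GFP mice for both genes. Aurkb differed by -0.91 ± 0.26 (adjusted p = 0.0351), with ratios of -0.71, -0.98 and -0.71 in FOXP2 mice and 0.81, -0.08 and -0.39 in GFP mice. Birc5 differed by -0.93 ± 0.27 (adjusted p = 0.0380), with ratios of -0.70, -1.14 and -0.33 in FOXP2 mice and 0.70, -0.11 and 0.07 in GFP mice. Cdk1 differed by -0.66 ± 0.21 (adjusted p = 0.0446), with ratios of -0.66, -0.72 and -0.77 in FOXP2 mice and 0.50, -0.45 and -0.21 in GFP mice. The ratios of these 3 genes did not overlap either. With Ccna2 and Ccnb1, the FOXP2 ratios lay below all GFP ratios for 7 of 9 genes, where 16.7% of genes did so. Ccna2 (-0.83 ± 0.29), Cenpf (-0.78 ± 0.33), Ccnb1 (-0.57 ± 0.24) and Bub1 (-0.44 ± 0.33) did not pass.

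The number of calls in this contrast depended on single mice. Without GFP mouse 1 Top2a alone passed (1385 of 16097 genes called in all) and the median was -0.44. Leaving out GFP mouse 2 gave 7 calls (3414 of 16202 genes in all), and leaving out GFP mouse 3 gave 2 (1001 of 16215). There were 2 with the moFoxp2 mouse left out (1129 of 16337). There were 0 with either huFOXP2 mouse left out, although 1402 of 16175 genes passed without huFOXP2 mouse 2. The median stayed between -0.999 and -0.44 in these 6 fits, with all 9 estimates below 0 in each. With huFOXP2 mouse 1 left out, 1 of 16176 genes passed in all. No gene of the 9 passed when the mouse was not used as a block, a fit whose calls over all genes are not given here.

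Other cells moved with this contrast in the same direction. In it 7 of 8 endothelial and pericyte markers, 6 of 8 astrocyte markers, 5 of 8 precursor markers, 2 of 7 microglia markers, 4 of 4 red blood cell markers tested, 2 of 7 meningeal markers and 1 each of 6 myelin, 5 ependymal and 5 choroid plexus markers were lower, and 3 of 6 markers of cortical excitatory neurons were higher. Of 10 subventricular zone markers 3 were lower and 1 was higher. Endothelial and pericyte markers summed to 396 to 524 CPM in L5-6 of FOXP2 mice and 427 to 689 CPM in L5-6 of GFP mice, and to 1017 to 1464 CPM in L2-3 of FOXP2 mice and 722 to 866 CPM in L2-3 of GFP mice. Meningeal markers in L2-3 summed to 1451 to 2053 CPM in FOXP2 mice and 404 to 1176 CPM in GFP mice. Ependymal markers in L5-6 summed to 4.27 to 8.85 CPM in FOXP2 mice and 24.5 to 49.6 CPM in GFP mice. Their part in the result was not tested.

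FOXP2 and GFP mice were then compared within each layer, the comparison in which the labels set the groups apart by construct alone. No dividing cell gene passed in L5-6, in L4 or in L2-3 in edgeR, and DESeq2 also called 0 of 9. With no filter on low counts, Top2a (adjusted p = 0.00489) and Mki67 (adjusted p = 0.0200) passed in L5-6 in edgeR, with 323 of 29074 genes called in all. Of all genes, 0.0196% passed in L5-6, 0.0275% in L4 and 0.0722% in L2-3. An unadjusted p under 0.05 was reached by 2 of 9 genes in L5-6, 1 in L4 and 1 in L2-3, against 946 of 15330, 457 of 14544 and 2412 of 15241 genes tested. These p-values measure the spread among 3 mice a side, so a difference that missed the threshold is not shown to be absent.

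In L5-6 all 9 estimates were below 0, with a median of -0.65, where 51.1% of all genes were below 0. Top2a had 28.7, 24.5 and 35.5 CPM in FOXP2 mice, against 77.3, 39.6 and 39.5 CPM in GFP mice, and differed by -0.83 ± 0.28 (unadjusted p = 0.0186, edgeR adjusted p = 0.713). Mki67 had 31.8, 24.8 and 35.9 CPM, against 73.3, 40.4 and 37.1 CPM in GFP mice (-0.72 ± 0.27, adjusted p = 0.713). All FOXP2 libraries lay below all GFP libraries for these 2 genes, 2 of 9, where 6.8% of genes did so. For the other 7 the groups overlapped, and the differences ran between -0.70 ± 0.35 for Cenpf and -0.39 ± 0.26 for Cdk1. The highest library of each gene was GFP mouse 1. Cenpf stood at 30.5 CPM there, against 13.7 and 15.3 CPM in the other GFP mice, and Bub1 at 10.9 CPM, against 4.17 and 5.56 CPM. Without that mouse the median over the 9 genes was -0.24, still with all 9 below 0. The precursor markers of this library, Gpr17 and Bcas1 included, summed to 2463 CPM, against 981 to 1239 CPM in L5-6 of FOXP2 mice and 1118 and 1406 CPM in L5-6 of the other GFP mice. Its microglia markers summed to 717 CPM, against 285 to 421 CPM in all other L5-6 libraries. Ependymal markers separated all mice of both groups in L5-6, at 6.53, 8.85 and 4.27 CPM in FOXP2 mice, against 49.6, 26.4 and 24.5 CPM in GFP mice, with 5 of 5 estimates below 0 (median -3.45). Estimates were also below 0 for 8 of 8 precursor (median -0.56), 6 of 6 myelin (-0.82), 8 of 8 endothelial (-0.21), 7 of 8 astrocyte, 6 of 7 microglia and 7 of 9 tested subventricular zone markers, and above 0 for 5 of 6 neuronal markers. No marker of these lists passed the threshold. The part of these cells in the result was not tested.

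**Figure D4:**
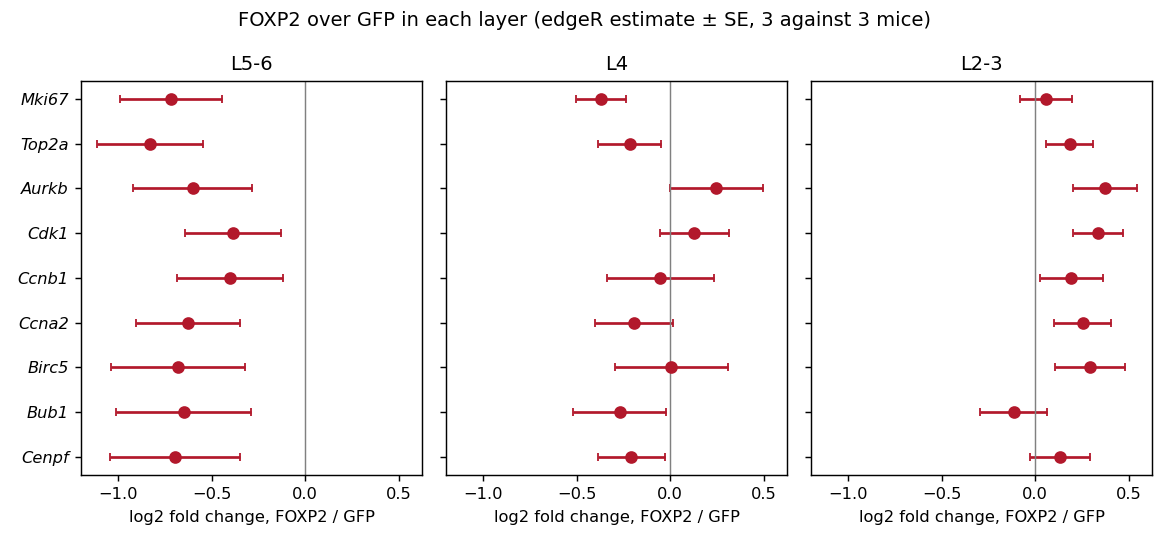
Log2 fold change of FOXP2 over GFP mice (horizontal axes, edgeR estimate with bars of SE, 3 against 3 mice) for each dividing cell gene in L5-6, L4 and L2-3. Estimates lie below 0 for all 9 genes in L5-6, on both sides of 0 in L4, and above 0 for 8 of 9 in L2-3, and none passed the threshold.

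In L2-3 the estimates leaned the other way, with 8 of 9 above 0 and a median of 0.19, where 48.4% of all genes were above 0. Cdk1 had 17.3, 18.2 and 20.6 CPM in FOXP2 mice, against 15.03, 15.8 and 13.4 CPM in GFP mice, and differed by 0.34 ± 0.14 (unadjusted p = 0.0372, adjusted p = 0.280). Aurkb had 7.90, 7.24 and 8.46 CPM, against 5.88, 5.63 and 6.63 CPM in GFP mice (0.37 ± 0.17, adjusted p = 0.338). Birc5 had 7.15, 7.16 and 7.37 CPM, against 6.74, 5.92 and 4.91 CPM in GFP mice (0.29 ± 0.19, adjusted p = 0.510). With Ccnb1 (6.45, 6.72 and 7.44 CPM, against 6.06, 5.92 and 5.93 CPM in GFP mice), these were 4 of 9 genes with every FOXP2 library above every GFP library, where 12.3% of genes did so. Bub1 alone lay below 0 (-0.11 ± 0.18). The endothelial and meningeal sums given above separated FOXP2 from GFP mice in the same direction in L2-3. Estimates were above 0 for 8 of 8 precursor, 7 of 8 astrocyte, 7 of 7 microglia, 4 of 4 tested red blood cell and 7 of 9 tested subventricular zone markers, and below 0 for 6 of 6 neuronal markers (0 passed). Their part in the result was not tested.

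In L4, the layer with the cells that the labels call GFP-positive, 6 of 9 estimates were below 0 with a median of -0.19. Mki67 had 19.6, 17.2 and 20.0 CPM in FOXP2 mice, against 26.3, 25.9 and 21.4 CPM in GFP mice, and differed by -0.37 ± 0.13 (unadjusted p = 0.0207, adjusted p = 0.9999). It was the 1 gene of 9 whose FOXP2 libraries all lay below the GFP libraries, where 3.84% of genes did so. Aurkb (0.25 ± 0.25), Cdk1 (0.13 ± 0.19) and Birc5 (0.0046 ± 0.30) had estimates above 0. The remaining 5 lay between -0.27 for Bub1 and -0.05 for Ccnb1. Without GFP mouse 1 the median was -0.07, with 5 of 9 below 0, and without huFOXP2 mouse 1 it was -0.22, with 7 of 9 below 0.

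The human and the mouse construct were compared over the summed layers of each mouse, where 1 mouse stands for moFoxp2 and is assumed to vary like the others. For FOXP2 over GFP mice 0 of 9 genes passed (median -0.18, 0.0172% of genes called), for huFOXP2 over GFP 0 of 9 (median -0.28, 0.0159%) and for moFoxp2 over GFP 0 of 9 (median 0.01, 0.0106%), comparisons that share the 3 GFP mice. For huFOXP2 over moFoxp2 it was 0 of 9 (median -0.19), as for 0% of genes. No unadjusted p was under 0.05 in any of these. Without GFP mouse 1 the median for FOXP2 over GFP mice was -0.05. All 9 estimates lay below 0 for huFOXP2 over moFoxp2, where 50% of all genes did, from -0.46 ± 0.25 for Cenpf to -0.11 ± 0.33 for Bub1. The errors were as wide as most of these differences. The median was -0.098 without huFOXP2 mouse 2, with 7 below 0, and -0.38 without huFOXP2 mouse 1. Also below 0 were 8 of 8 precursor, 6 of 6 myelin, 8 of 8 endothelial and 9 of 10 subventricular zone markers. Above 0 were 5 of 7 meningeal, 4 of 6 neuronal and 4 of 8 astrocyte markers. Their part in the result was not tested. After L5-6 of GFP mouse 1, L2-3 of the moFoxp2 mouse was the highest of the 18 libraries for 7 of the 9 genes, for example 47.8 CPM for Top2a and 20.6 CPM for Cdk1.

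A further 73 genes of the cell cycle were listed by role, 72 of which were tested in the layer comparisons. In L4 relative to L2-3 of FOXP2 mice 48 fell (66.7%, against 20.9% of all genes) and 2 rose (2.78%, against 18.8%). In GFP mice 13 fell there (18.1%, against 7.07%). In L5-6 relative to L4 of FOXP2 mice 7 rose (9.72%, near the 8.48% of all genes) and 2 fell (2.78%, against 6.46%). In GFP mice 41 rose (56.9%, against 16.3%) and 2 fell (2.78%, against 14.3%). The medians were -0.59 and -0.33 for L4 over L2-3 in FOXP2 and GFP mice, and 0.25 and 0.52 for L5-6 over L4 in FOXP2 and GFP mice. In L5-6 relative to L2-3 of FOXP2 mice 38 fell (52.8%, against 19.2% of all genes) and 2 rose (2.78%, against 17.8%). In GFP mice 4 fell (5.56%, against 14.7%) and 8 rose (11.1%, less than the 15.3% of all genes). Within layers 0 passed for FOXP2 over GFP, with medians of -0.37 in L5-6, -0.05 in L4 and 0.21 in L2-3.

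**Figure D5:**
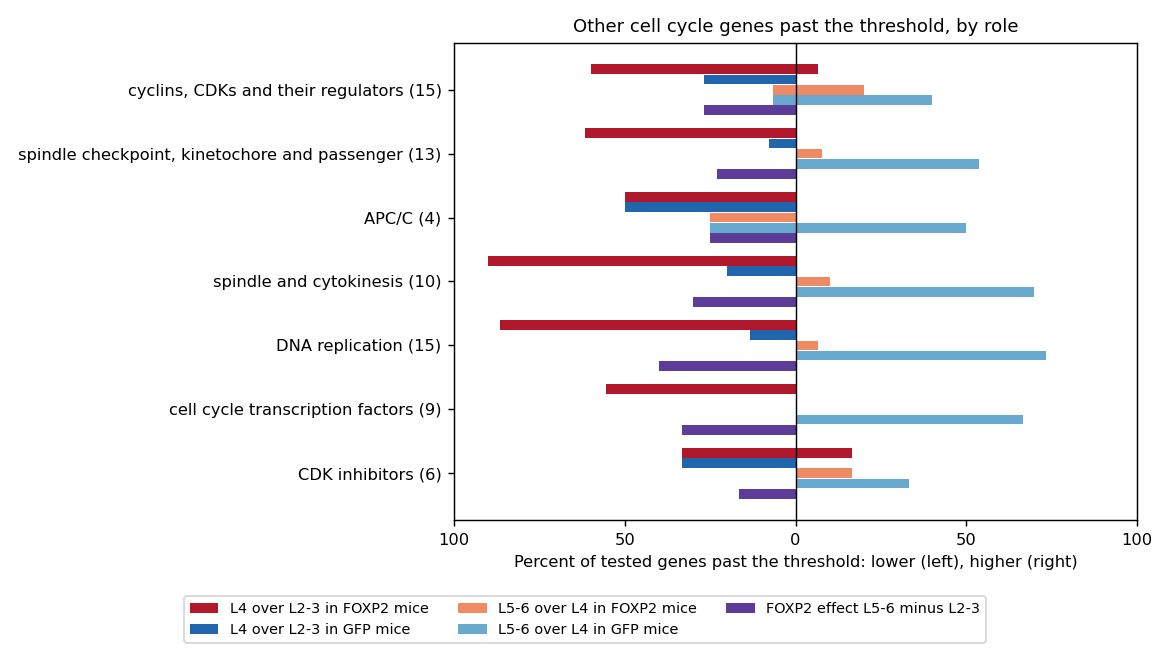
Percent of the tested cell cycle genes of each role (the number tested stands in parentheses) that passed the threshold, lower to the left of 0 and higher to the right, in 5 comparisons. Bars of L4 over L2-3 point to the left except for 1 cyclin or CDK gene and 1 inhibitor gene in FOXP2 mice, those of L5-6 over L4 mostly to the right, and replication and spindle genes passed in the largest shares in L4 over L2-3 of FOXP2 mice.

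Genes of DNA replication took part with those of mitosis. In L4 relative to L2-3 of FOXP2 mice Mcm2, a subunit of the replicative helicase, fell by 0.72 ± 0.14 (adjusted p = 0.000826), and Cdc6, which loads that helicase onto DNA, fell by 1.72 ± 0.32 (adjusted p = 0.000668). Among spindle genes Kif23, a kinesin of cytokinesis, fell by 1.46 ± 0.22 (adjusted p = 0.000171), and Cdc20, the activator of the anaphase-promoting complex, fell by 1.203 ± 0.15 (adjusted p = 3.19e-05). The transcription factor Foxm1, which drives genes of G2 and mitosis, fell by 0.76 ± 0.14 (adjusted p = 0.000810). Inhibitors of the cycle did not move in 1 direction: Cdkn1c (p57) fell by 2.14 ± 0.19 (adjusted p = 2.20e-06) and Cdkn2d (p19) rose by 0.44 ± 0.12 (adjusted p = 0.0110). In L5-6 over L4 of GFP mice Mcm6 rose by 0.48 ± 0.07 (adjusted p = 0.000323) and the centromeric histone gene Cenpa by 1.06 ± 0.17 (adjusted p = 0.000623), while Ccne1 (cyclin E1), which acts at the entry into DNA synthesis, fell by 0.90 ± 0.17 (adjusted p = 0.00159).

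Of these 72 genes, 21 (29.2%, against 8.41% of all genes) also had a lower FOXP2 effect in L5-6 than in L2-3 and 0 a higher one (median -0.52). They included Kif23 (-1.22 ± 0.29, adjusted p = 0.0174), E2f2 (-1.20 ± 0.27, adjusted p = 0.0146), an E2F transcription factor of the entry into DNA synthesis, Cenpa (-1.03 ± 0.23, adjusted p = 0.0160) and Bub1b (-1.01 ± 0.23, adjusted p = 0.0164). Bub1b was also the gene most like the members over the 18 libraries.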

How the data were processed

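Raw read counts of 54446 genes in 18 libraries were used as the authors deposited them, and no column of the table was left out. STAR, HTSeq and the mm10 build are named per the submitters' processing notes. Versions, gene models and strand settings were not given in the sources used here. Groups came from the sample titles, and libraries of 1 construct with the same number were taken as 1 mouse, since the labels state that layers were pooled per mouse. Deviations from group means over 16305 genes correlated at 0.261 to 0.667 within a mouse (18 pairs), so the mouse was a block in layer comparisons. Replicate numbers pair no mice between constructs (r = -0.279 to 0.177). Counts were tested with edgeR 4.0.16 (limma 3.58.1, R 4.3.3): TMM, filterByExpr (minimum count 10, minimum total 15), quasi-likelihood F test, Benjamini-Hochberg over all genes tested, threshold 0.05. SE is the fold change over the square root of F. The fits were run on simulated counts with 1 mean per gene and added changes, without mouse or layer effects, so the mouse block was not tested. Of added log2 changes of 1, 70% were called for FOXP2 over GFP in L2-3 and 85% in summed layers. The share was 93% for L5-6 over L4 in GFP mice and 78% for the FOXP2 effect in L5-6 minus L2-3. Alternatives were DESeq2 1.42.0, its size factors, no filter, other blocks and each mouse left out. Named were the 9 members, Foxp2, up to 3 genes of smallest p per role past the threshold in a comparison, and the 10 genes most like the members; log2 CPM used an offset of 0.5. Members, lists and tests were chosen with earlier results of these data known. Library totals of 10111149 to 23404528 limit the precision of low genes.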

Additional observations from a re-analysis of the deposited data

Results flagged for a closer look

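These 12 genes are listed because a test of the difference itself found that the FOXP2 effect differed between L5-6 and L2-3 (edgeR, mouse as a block, adjusted p under 0.05 over 16305 genes). The dividing cell genes among them are Mki67 (-0.74), Top2a (-0.96), Aurkb (-0.91), Cdk1 (-0.66) and Birc5 (-0.93, all on the log2 scale). The log2 ratio of L5-6 over L2-3 averaged -0.57 ± 0.17 in FOXP2 mice and 0.38 ± 0.64 in GFP mice for Top2a (SD, n = 3 each). For Mki67 it averaged -0.23 ± 0.35 in FOXP2 mice and 0.50 ± 0.54 in GFP mice. The spread in GFP mice was the wider one for both genes, with GFP mouse 1 at 1.09 for each. In 2 of the 6 fits that leave out a mouse, 0 of the 9 members passed. Of all genes, 1 of 16176 passed without huFOXP2 mouse 1 and 1402 of 16175 without huFOXP2 mouse 2.

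The others are the first gene by p of each role list: Cdc20 (-0.97), which activates the anaphase-promoting complex, Cdkn1c (-1.16), an inhibitor of cyclin-dependent kinases, E2f2 (-1.20), Ccnd3 (-0.91), the D-type cyclin 3, Mcm6 (-0.42), Kif23 (-1.22) and Cenpa (-1.03). All differed in the direction of the dividing cell genes.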

How the results depend on the processing

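Direction and calls of the 9 genes were the same with the size factors of DESeq2 in place of TMM. The DESeq2 test itself kept the direction and calls in 87 of 90 results of a gene and comparison, and 3 more passed: Top2a in L4 over L2-3 of GFP mice (-0.52, adjusted p = 0.0401), Ccna2 in L5-6 over L2-3 of FOXP2 mice (-0.55, adjusted p = 0.0471) and Ccna2 for the FOXP2 effect in L5-6 minus L2-3 (-0.86, adjusted p = 0.0428). Over all genes, FOXP2 over GFP gave 56 calls with DESeq2 and 3 with edgeR in L5-6, 32 and 4 in L4, 755 and 11 in L2-3 (4 with DESeq2 size factors in edgeR), and 62 and 3 in summed layers. The effect in L4 minus L2-3 gave 526 and 0 calls, and that in L5-6 minus L4 gave 11 and 1. Without the filter on low counts, 2 genes passed for FOXP2 over GFP in L5-6 (323 of all genes, against 3 with the filter; 189 against 4 in L4 and 865 against 11 in L2-3), 3 in L5-6 over L2-3 of GFP mice, 8 in L4 over L2-3 of GFP mice, 4 in L5-6 over L4 of FOXP2 mice and 1 for the FOXP2 effect in L5-6 minus L4; the cause was not tested. With no replicate block for the mouse, 0 passed in L5-6 over L2-3 and in L4 over L2-3 of GFP mice, 2 in L5-6 over L2-3 of FOXP2 mice, 0 in L5-6 over L4 of FOXP2 mice and 0 for the FOXP2 effect in L5-6 minus L2-3. In fits of 9 libraries (fewer samples), 0 passed in L5-6 over L2-3 and in L4 over L2-3 of GFP mice and 3 in L5-6 over L4 of FOXP2 mice. Calls over all genes are not given here for the layer contrasts without the filter, without the block or in fits of 9 libraries. The changed counts of members there are therefore not shown to be particular to these genes. Leaving out each mouse in turn, 0 to 7 passed for the effect in L5-6 minus L2-3 (1 to 3414 of all genes) and 0 to 9 in L4 over L2-3 of GFP mice (486 to 2908). In L5-6 over L2-3, 0 to 2 passed in GFP mice (2982 to 4640 of all genes) and 1 to 6 in FOXP2 mice (3922 to 7104). In L5-6 over L4 of FOXP2 mice 0 to 3 passed (709 to 3881 of all genes). Some log2 differences changed sign when a mouse was left out, none of them called with all mice in the fit. Their spans are given over all alternative settings, not only the fits without a mouse. For FOXP2 over GFP they spanned -0.060 to 0.17 for Mki67 in L2-3 and, in L4, -0.26 to 0.16 for Ccnb1 and -0.17 to 0.36 for Birc5. In L5-6 over L2-3 of GFP mice they spanned -0.25 to 0.37 for Aurkb, -0.35 to 0.16 for Cdk1, -0.079 to 0.56 for Ccna2, -0.040 to 0.41 for Birc5, -0.35 to 0.46 for Bub1 and -0.087 to 0.73 for Cenpf. In L5-6 over L4 of FOXP2 mice they spanned -0.0034 to 0.21 for Aurkb and -0.0067 to 0.49 for Birc5. In fits of numbers 1 and 2 alone, the FOXP2 over GFP difference of Mki67 in L2-3 was -0.031 with the replicate block and -0.060 without the block, and that of Birc5 in L4 was -0.17 with the block and -0.14 without it. Replicate numbers do not pair mice between constructs. Both sign changes occurred with and without the block, and the block changed no call of a member within layers.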
